A study of Mus musculus with 16 samples.

Results

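The baseline of the study was the set of 4 arrays hybridised with RNA of E14 cells, a line of mouse embryonic stem (ES) cells, that had received EGFP, a green fluorescent protein, and nothing aimed at the genome. These 4 arrays were 4 of 16 in the series, and they are described on their own, gene by gene, without a comparison between groups. They were chosen by their sample titles. The other 12 arrays carried RNA of cells given 1 of 3 constructs directed to the Ptn gene.

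All cells of the baseline were E14 cells kept in 15% serum with LIF at 1000 units/ml, transfected with the plasmid by Lipofectamine, sorted for green fluorescence at 24 h and put back in culture until harvest at 48 h. E14 is 1 line, so the values describe that line under these conditions, after a lipid transfection and a sort that no unhandled culture was set against here. The labels speak of 2 biological and 2 technical replicates, in an order that they do not state, so the spread between arrays is partly technical and n = 4 counts arrays, not cultures. The RNA came from whole sorted populations, so RNA present in a few cells cannot be told apart from a low level in all cells.

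ES cells are derived from the inner cell mass of the blastocyst and can form every tissue of the embryo. In serum and LIF they are held undifferentiated by a circuit of transcription factors around Pou5f1 (also known as Oct4), Sox2 and Nanog, with LIF acting through Stat3 and the BMP activity of serum acting through the Id genes. They divide fast, have a short first gap phase, and carry most genes of later lineages in a silent state, many of them marked by Polycomb proteins.

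A gene was counted as expressed when 1 or more of its probes carried the scanning software's flag for a signal well above background on 3 or 4 arrays. It was counted as at background when no probe was so marked on any array, and as in between with 1 or 2 arrays. The level of a gene is the log2 of its processed signal minus the log2 of the 75th percentile of that array, so that 0 is the 75th percentile of all spots. A level depends on the probe as well as on the RNA, so levels of different genes are not ranked as amounts of RNA, and a gene called bright below has a bright signal only.

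Expressed and background genes differed in the sequence around the transcription start, and 6 promoters are shown because they cover both ends of that range. Each runs from 250 bases before to 50 bases after the transcription start in RefSeq (build GRCm38.p6), 5′ to 3′ on the strand of the gene, with each CpG dinucleotide in capitals. The genes were picked after their values had been seen. Pou5f1 (chr17:35505782-35506081, plus strand), Sox2 (chr3:34649745-34650044, plus strand) and Nanog (chr6:122707239-122707538, plus strand) are the factors of the core circuit. Rplp0 (chr5:115559217-115559516, plus strand) codes for a ribosomal stalk protein, Hprt (chrX:52987828-52988127, plus strand) for a purine salvage enzyme, and Hba-a1 (chr11:32283422-32283721, plus strand) for an alpha globin of red blood cells.
Pou5f1: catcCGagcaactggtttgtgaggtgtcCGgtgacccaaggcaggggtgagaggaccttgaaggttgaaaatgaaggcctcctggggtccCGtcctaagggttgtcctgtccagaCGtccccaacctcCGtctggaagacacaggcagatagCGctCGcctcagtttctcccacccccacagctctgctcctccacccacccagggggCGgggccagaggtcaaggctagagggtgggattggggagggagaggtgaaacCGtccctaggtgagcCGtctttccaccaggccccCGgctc
Sox2: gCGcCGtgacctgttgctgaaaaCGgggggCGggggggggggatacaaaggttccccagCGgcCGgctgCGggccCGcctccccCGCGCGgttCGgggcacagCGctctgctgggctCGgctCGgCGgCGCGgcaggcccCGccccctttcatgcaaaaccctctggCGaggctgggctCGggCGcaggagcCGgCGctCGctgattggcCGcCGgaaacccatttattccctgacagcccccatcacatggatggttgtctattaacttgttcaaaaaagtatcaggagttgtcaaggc
Nanog: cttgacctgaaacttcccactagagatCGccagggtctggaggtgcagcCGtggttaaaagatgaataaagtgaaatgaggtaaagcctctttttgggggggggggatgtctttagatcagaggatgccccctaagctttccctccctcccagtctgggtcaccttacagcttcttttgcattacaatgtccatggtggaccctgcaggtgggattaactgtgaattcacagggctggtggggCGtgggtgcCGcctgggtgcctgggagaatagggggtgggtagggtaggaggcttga
Rplp0: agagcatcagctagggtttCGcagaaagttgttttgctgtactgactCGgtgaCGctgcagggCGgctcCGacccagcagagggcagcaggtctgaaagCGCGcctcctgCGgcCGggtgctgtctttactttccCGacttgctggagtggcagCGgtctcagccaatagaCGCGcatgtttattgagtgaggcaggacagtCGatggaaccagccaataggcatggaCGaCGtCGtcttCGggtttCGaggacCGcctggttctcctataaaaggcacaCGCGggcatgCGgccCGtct
Hprt: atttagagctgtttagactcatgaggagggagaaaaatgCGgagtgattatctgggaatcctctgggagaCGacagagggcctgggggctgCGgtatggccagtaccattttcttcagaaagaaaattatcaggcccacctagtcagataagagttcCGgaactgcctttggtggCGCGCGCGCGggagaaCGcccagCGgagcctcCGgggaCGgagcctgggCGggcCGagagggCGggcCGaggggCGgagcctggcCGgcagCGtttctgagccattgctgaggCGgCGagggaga
Hba-a1: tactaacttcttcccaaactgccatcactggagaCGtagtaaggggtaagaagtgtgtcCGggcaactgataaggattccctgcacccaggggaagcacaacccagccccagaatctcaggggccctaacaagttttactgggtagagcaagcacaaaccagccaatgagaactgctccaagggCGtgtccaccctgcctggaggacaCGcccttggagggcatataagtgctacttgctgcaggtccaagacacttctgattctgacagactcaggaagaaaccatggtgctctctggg

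Among these, the Sox2 promoter holds 27 CpG dinucleotides, the Rplp0 promoter 24 and the Hprt promoter 22, whereas the Pou5f1 promoter holds 11 and the Nanog and Hba-a1 promoters hold 4 each. Pou5f1, Sox2, Nanog and Rplp0 were expressed and Hprt and Hba-a1 were at background. In this handful, picked with values known, CpG-poor Nanog was expressed and CpG-rich Hprt was at background. The labels do not name the E14 subline, so whether these cells carry the Hprt sequence shown is not known.

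The arrays themselves were uneven. Replicates 1 and 2 shared a slide and replicates 3 and 4 another, and the median coefficient of variation between repeated spots of a probe was 68.0 and 72.2% on the former and 39.3 and 17.1% on the latter. The share of spots well above background ran from 27.1 to 41.2%, lowest on replicate 2, whose 75th percentile of signal (209.3) was far below those of the other 3 arrays (566.4 to 751.7). The software marked between 7.38 and 13.9% of spots as uneven or as outliers, and bright or dim patches covered 35.6% of spots on replicate 1, 13.8 and 13.1% on replicates 2 and 3, and 0.641% on replicate 4. Marked spots were left out of levels but not of detection, so many genes have a level on fewer than 4 arrays. Levels are not corrected for patches unless stated, so a reading that stands apart on a single array can lie in a patch. On the arrays' own negative control spots (308 each), 2.92 to 8.44% were called well above background. The saturation value of the scanner lay at 6.58, 8.29, 6.45 and 6.85 on the level scale of replicates 1 to 4. It applies to the raw signal, and processed signals passed it on replicates 2 and 4, so saturation is taken from the software's flag for each spot.

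Of 20972 named genes, 9445 were expressed, a share of 45.0%, and 7369 were at background, a share of 35.1%. The other 4158 (19.8%) were in between. The list counts below are to be read beside these shares. Detection on all 4 arrays was the usual case for expressed genes, with 7141 genes on 4 arrays and 2304 on 3. Median levels rose with the number of arrays, from -3.59 for genes on 0 arrays through -2.83, -1.64 and -0.38 to 2.24 for genes on 4. Single arrays called 9903, 8476, 11200 and 11976 genes. Replicate 2 was the missing array for 1555 of the 2267 genes whose level probe was called on exactly 3 arrays, against 348, 339 and 25 for replicates 1, 3 and 4. Without replicate 2, 8748 genes were called on all 3 remaining arrays and 10838 on at least 2 of them. Protein-coding genes were expressed in 9282 of 19766 cases (47.0%) and genes annotated as long noncoding RNA in 93 of 989 (9.40%).

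**Figure D1:**
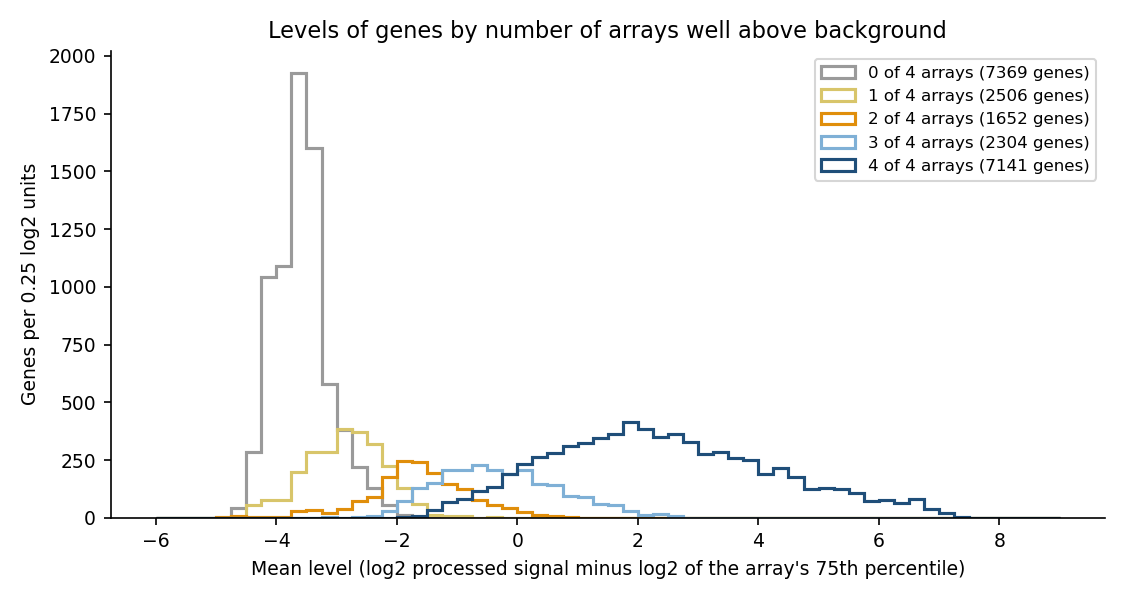
Number of genes (vertical axis, per 0.25 log2 units) by mean level over the 4 EGFP arrays (horizontal axis, log2), 1 line for each number of arrays on which the gene was well above background. Genes on 0 arrays pile up around -3.59 and genes on 4 arrays spread around 2.24, and genes on 3 arrays lie between them around -0.38.

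Gene families that ES cells are not known to use served as a check on the rule. Olfactory receptors, vomeronasal receptors of both classes, bitter taste receptors, hair keratin-associated proteins and defensins of both classes held 1466 genes, of which 20 (1.36%) were expressed and 1141 (77.8%) at background. On single arrays, 4.50 to 9.82% of them were called. The count rose to between 39 and 58 when 1 array was left out and 2 of 3 were asked for. The brightest of the 20 was Olfr215, an olfactory receptor gene, at 5.67, 5.39 and 1.42 on replicates 1 to 3, with a marked spot at 3.64 on replicate 4. Krtap4-8, a keratin-associated protein gene, had a mean of 1.34 ± 1.24 (SD, n = 3 arrays), and Olfr985, Olfr214 and the defensin gene Defa3 had means from 0.05 to 0.38. Each of these genes was called on 4 arrays, and whether their probes pick up another RNA was not tested.

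The label was checked against 4 defining ES cell markers, and all of them were well above background on all 4 arrays. Pou5f1, the POU factor without which pluripotency is lost, read 3.89 on replicate 1, 7.05 on replicate 2, 6.34 on replicate 3 and 6.69 on replicate 4 (mean 5.99 ± 1.43, SD, n = 4). Sox2, its partner on DNA, read 5.85, 5.07 and 4.91 on replicates 1, 3 and 4, and its marked spot on replicate 2 read 6.06. Replicate 1 was the low array for Pou5f1 and the high one of the unmarked arrays for Sox2, so the arrays did not share an order. Nanog, the homeodomain factor that supports self-renewal, read 6.43 and 5.63 on replicates 1 and 3, with marked spots at 6.82 and 4.99 on replicates 2 and 4. A second Nanog probe was called on 0 arrays, at a mean level of -3.36. Zfp42 (Rex1), a zinc finger gene used as a marker of undifferentiated cells, read 6.28 and 6.40 on replicates 3 and 4, with marked spots at 5.33 and 6.22 on replicates 1 and 2. Pou5f1 was saturated on replicate 3, and its mean was 6.93 over 3 arrays after a correction for bright and dim patches.

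**Figure D2:**
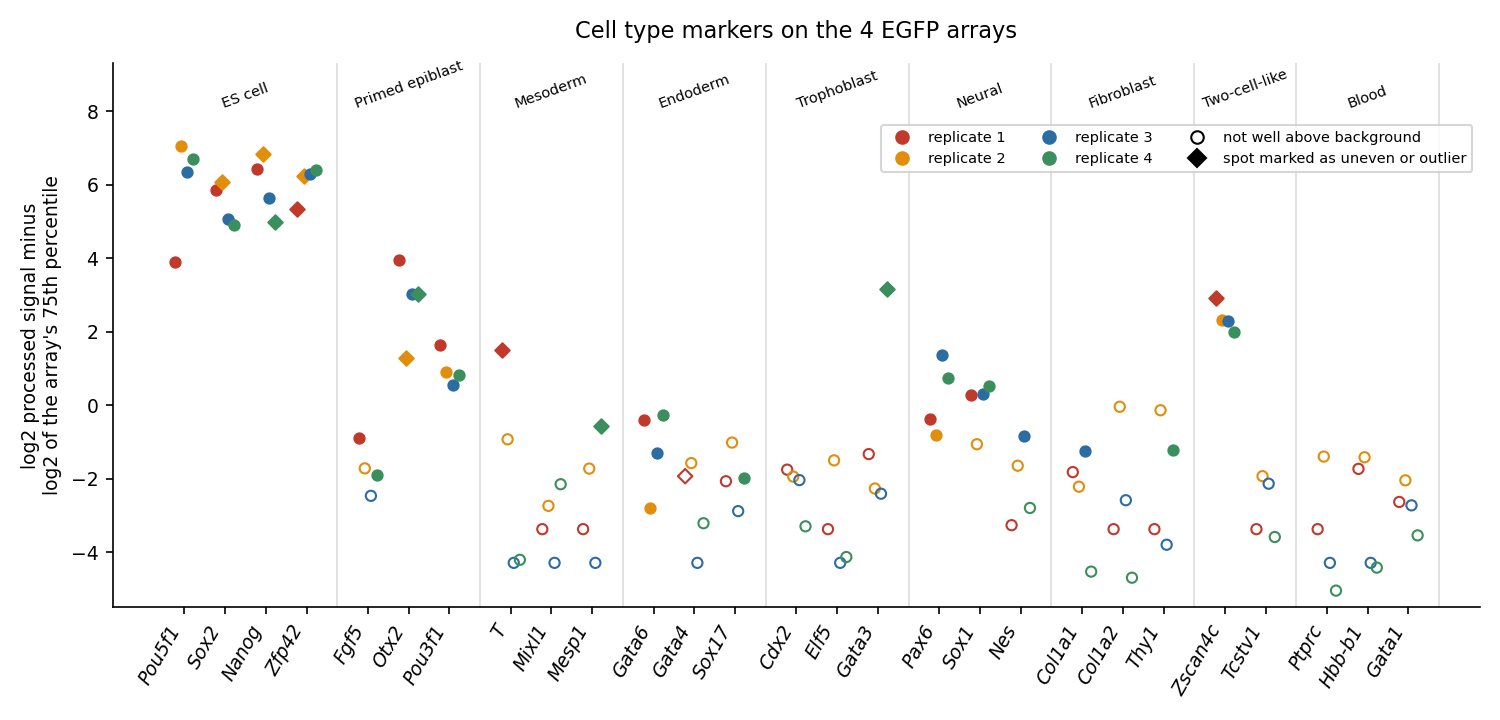
Level (vertical axis, log2 relative to the array's 75th percentile) of markers of 9 cell types on each of the 4 EGFP arrays, with filled symbols for spots well above background and diamonds for marked spots. The 4 ES cell markers sit between 3.89 and 7.05, while markers of mesoderm, trophoblast and blood are mostly open symbols below 0.

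All 16 genes of a core pluripotency list were expressed, each on 4 arrays, with a median level of 5.68, beside the 45.0% of all genes and their median of 1.57 among expressed genes. The list includes Utf1, Dppa2 and Dppa4, chromatin-associated proteins of pluripotent cells, and Tdgf1, a co-receptor of Nodal. Its lowest level was that of Lin28a, the RNA-binding protein that blocks let-7 maturation, with 0.29 and 3.28 on replicates 1 and 2 and marked spots at 3.84 and 2.76 on replicates 3 and 4. When marked spots were left out of detection, only 8 of the 16 still reached 3 arrays. Of 20 genes of naive pluripotency, the ground state of the early epiblast, 19 were expressed, each on 4 arrays, and 11 when marked spots were left out.

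Klf4, a Krüppel-like factor that sustains Nanog, read 5.54 and 4.66 on replicates 1 and 3 and 5.88 and 4.87 in the marked spots of replicates 2 and 4. Esrrb, an orphan nuclear receptor of the same circuit, read 4.75, 4.05 and 6.17 on replicates 2 to 4 and 2.90 in a marked spot on replicate 1. Tfcp2l1, a LIF target, had a mean of 3.42 ± 0.48 (SD, n = 3), with a second probe called on 1 array at a mean of -2.54. Klf2 had a mean of 5.74 ± 0.55 (n = 2). The exception was Dppa3 (Stella), a maternal factor that protects imprints and is known to vary from cell to cell in ES cultures, which was called on replicate 4 alone.

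Of 16 genes of the LIF pathway, 12 were expressed and 1 was at background, beside 45.0 and 35.1% of all genes. The receptor subunit Lifr read 4.26, 2.46 and 3.06 on replicates 1 to 3, with a marked spot at 3.42 on replicate 4. Its other probes were called on 4 and 2 arrays, at means of -0.99 and -1.86. Its partner Il6st (gp130) read 3.00 and 1.43 on replicates 1 and 4 and 2.55 in a marked spot on replicate 2. On replicate 3 Il6st read -4.22 and was at background. After a correction for patches Il6st kept 2 levels, with a mean of 2.11. Stat3, the transcription factor downstream, had a mean of 2.39 ± 0.88 (SD, n = 4), and Socs3, the feedback inhibitor that Stat3 induces, read 3.90 on replicate 2, with marked spots at 1.53, 3.75 and 3.08 on replicates 1, 3 and 4. Jak1, the kinase bound to the receptor, had a mean of 1.03 ± 1.15 (n = 3) and was called on 4 arrays, while its relative Jak2 was called on 2 and the IL-6 receptor gene Il6ra on 1. The ligand gene Lif itself was at background on all 4 arrays, in cells that received LIF in the medium.

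Of 16 genes of BMP, Nodal and serum signalling, 15 were expressed. Id1, Id2 and Id3, inhibitors of bHLH factors that BMP induces, had means of 3.54 ± 0.12, 2.70 ± 1.07 and 3.39 ± 0.68 (SD, n = 3 each). The marked spot of Id1 on replicate 1 read 1.78. Bmp4 and the Nodal antagonists Lefty1 and Lefty2 were also expressed, with means of 4.73, 3.46 and 2.60. Nodal, a ligand of the TGF-beta family, read -0.58, 2.64, 4.31 and 3.52, far lower on replicate 1 than on the other arrays. The receptor-bound factors split, with Smad1 (by 1 of its 2 probes) and Smad2 called on 3 arrays, Smad5 on 4 and Smad3 on 2.

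Genes of the primed epiblast, the next stage of the embryo, were expressed in part, 9 of 13 (69.2%), beside 45.0% of all genes. Otx2, a homeobox gene of the transition, read 3.95 and 3.03 on replicates 1 and 3 and 1.29 and 3.02 in marked spots on replicates 2 and 4. Pou3f1 (Oct6) read 1.65, 0.89, 0.54 and 0.81, a narrow range with replicate 1 highest. The DNA methyltransferase Dnmt3b had a mean of 5.50 ± 0.34 (SD, n = 3). Fgf5, the classical marker of the primed state, was called on replicates 1 and 4 only, at -0.91 and -1.90, and read -1.72 and -2.47 on replicates 2 and 3. Etv4, Foxd3 and Zic2 were expressed, with means of 3.62, 1.44 and 0.99.

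Lineages past the epiblast were detected to different extents. Of 16 genes of primitive streak and mesoderm, 2 were expressed, a share of 12.5%, and 8 were at background, beside 45.0 and 35.1% of all genes. Brachyury (T), the streak marker, was called only in a marked spot on replicate 1, and Mixl1 and Gsc were at background on all 4 arrays. The 2 exceptions were Kdr, a VEGF receptor, at 0.55, 0.85, -0.61 and -1.70, and the bHLH factor Twist1, with a mean of -0.65 ± 0.55 (SD, n = 4). The second Kdr probe was called on 1 array, at a mean of -2.38.

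Of 16 endoderm genes, 3 were expressed (18.8%) and 10 were at background (62.5%), beside 45.0 and 35.1% of all genes. Gata6, the driver of primitive endoderm, was called on 4 arrays at -0.39, -2.80, -1.30 and -0.27, highest on replicates 1 and 4. Its reading on replicate 2 lay below the median of that array's negative controls, -2.23, so that call is weak. Its relative Gata4 was at background, and Sox17 and Sox7 were called on 1 array each. The basement membrane genes Lamb1 (laminin) and Col4a1 (collagen IV), which are not confined to endoderm, had means of 3.28 ± 0.55 (n = 3) and -0.51 ± 0.45 (n = 4).

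Of 16 trophoblast genes, 3 were expressed (18.8%), beside 45.0% of all genes. At background were 6 (37.5%), near the 35.1% of all genes. Cdx2 and Elf5, the factors that define trophoblast stem cells, were at background on all 4 arrays, and Gata3 was called in a marked spot on replicate 4 alone. Gcm1, a transcription factor of the placental labyrinth, read 5.17, 7.18 and 3.44 on replicates 1 to 3 and 5.64 in a marked spot on replicate 4. Gcm1 has 4 probes, of which 3 were called on 4 arrays, at means of 5.26, 4.74 and 1.41, and the fourth on 0 arrays at -3.22. Its probes therefore disagreed, and which transcripts they read was not tested. Krt8, a simple epithelial keratin, had a mean of 0.76 ± 0.76 (SD, n = 4), and Tfap2c, an AP-2 factor of trophoblast and germ cells, a mean of 1.01 ± 1.39 (n = 4).

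Among 16 neural genes 6 were expressed, a share of 37.5%, near the 45.0% of all genes. Only 3 were at background, a share of 18.8% beside 35.1%. Pax6, a factor of the neural plate and eye, read -0.38, -0.82, 1.36 and 0.73, and its second probe was called on 0 arrays at a mean of -3.47. Sox1, the first specific gene of neuroectoderm, read 0.28, 0.29 and 0.53 on replicates 1, 3 and 4 and was not called on replicate 2, at -1.06. Its second probe was called on 0 arrays, at a mean of -3.14. The bHLH factor Neurod1 read 2.25, 1.11, 1.31 and 1.00, with a second probe called on 2 arrays at a mean of -0.63. Stmn2, a microtubule regulator of neurons, read 4.05 on replicate 1, and its spots on the other arrays were all marked, at 3.23, 1.81 and 3.29. Nes (nestin), the intermediate filament of neural progenitors, was called on replicate 3 alone and Neurog2 on 0 arrays.

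Fibroblast genes were read because fibroblasts are a common feeder layer of ES cells. Of 16 such genes 5 were expressed, a share of 31.2% beside the 45.0% of all genes. Col1a2 was at background, Col1a1 and the surface antigen Thy1 were called on 1 array each, and Col3a1 was called on 3 arrays with a mean of -1.41 ± 0.58 (SD, n = 4). The expressed members with the highest levels were Fn1 (fibronectin) and Vim (vimentin), with means of 5.66 ± 0.40 (n = 2) and 3.66 ± 1.52 (n = 4), both of which are known from many cell types besides fibroblasts. Acta2, the smooth muscle actin of myofibroblasts, was called on replicates 1, 3 and 4 at 1.66, 2.95 and -0.64, and Loxl1, a collagen cross-linking enzyme, on 4 arrays with a mean of -1.13. Over the 16 genes, marked spots included, the log2 of the summed signal was 6.61, 5.33, 5.75 and 5.82 on replicates 1 to 4.

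Blood and endothelium gave 3 expressed genes of 15 and 12 at background. The globin genes Hbb-b1 and Hba-a1, the leukocyte antigen Ptprc (CD45) and the red cell factor Gata1 were at background on all 4 arrays. The 3 expressed members were Kit, Cd34 and Tek. Kit, the stem cell factor receptor, which is also known from germ cells and ES cells, read 2.68, 1.28, 1.99 and 1.33. Cd34 and Tek had means of -0.02 and -1.71, and the second Cd34 probe was called on 1 array, at a mean of -2.61. In the muscle list 2 of 16 genes were expressed (12.5%) and 6 were at background (37.5%). The latter included the master factors Myod1 and Myog. The highest level of the list was that of Myh3, an embryonic myosin, at 0.57, -1.24, -0.99 and -0.96. Its second probe was called on 2 arrays at a mean of -2.15. The muscle count was 6 of 16 without replicate 2, when 2 of the 3 remaining arrays were asked for. The trophoblast count was then 7 of 16.

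Of 16 germ cell genes 10 were expressed, a share of 62.5% beside the 45.0% of all genes, among them Ddx4 (Vasa), an RNA helicase of germ cells, with a mean of 1.75 ± 0.51 (SD, n = 3), and Dazl, an RNA-binding protein, with -0.30 ± 0.87 (n = 3). The meiotic genes Sycp3 and Stra8 had means of 2.98 and 2.05, and Mael, a piRNA pathway gene, 2.44. Nanos2, of male germ cells, was at background.

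Genes known from the rare ES cells that resemble the two-cell embryo were expressed in 6 of 12 cases, a share near the 45.0% of all genes. Zscan4c, a telomere-associated zinc finger gene, read 2.31, 2.30 and 2.00 on replicates 2 to 4, and its marked spot on replicate 1 read 2.91. Zscan4f read 3.62 and 3.59 on replicates 3 and 4, with marked spots at 2.74 and 6.09 on replicates 1 and 2, a far wider range. Zfp352 had a mean of 2.41 ± 0.91 (SD, n = 3), with a second probe called on 0 arrays, and Tcstv1 was at background. Members of the Zscan4 family are near-identical copies whose probes can share RNA, so the values of Zscan4c and Zscan4f are not independent.

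**Figure D3:**
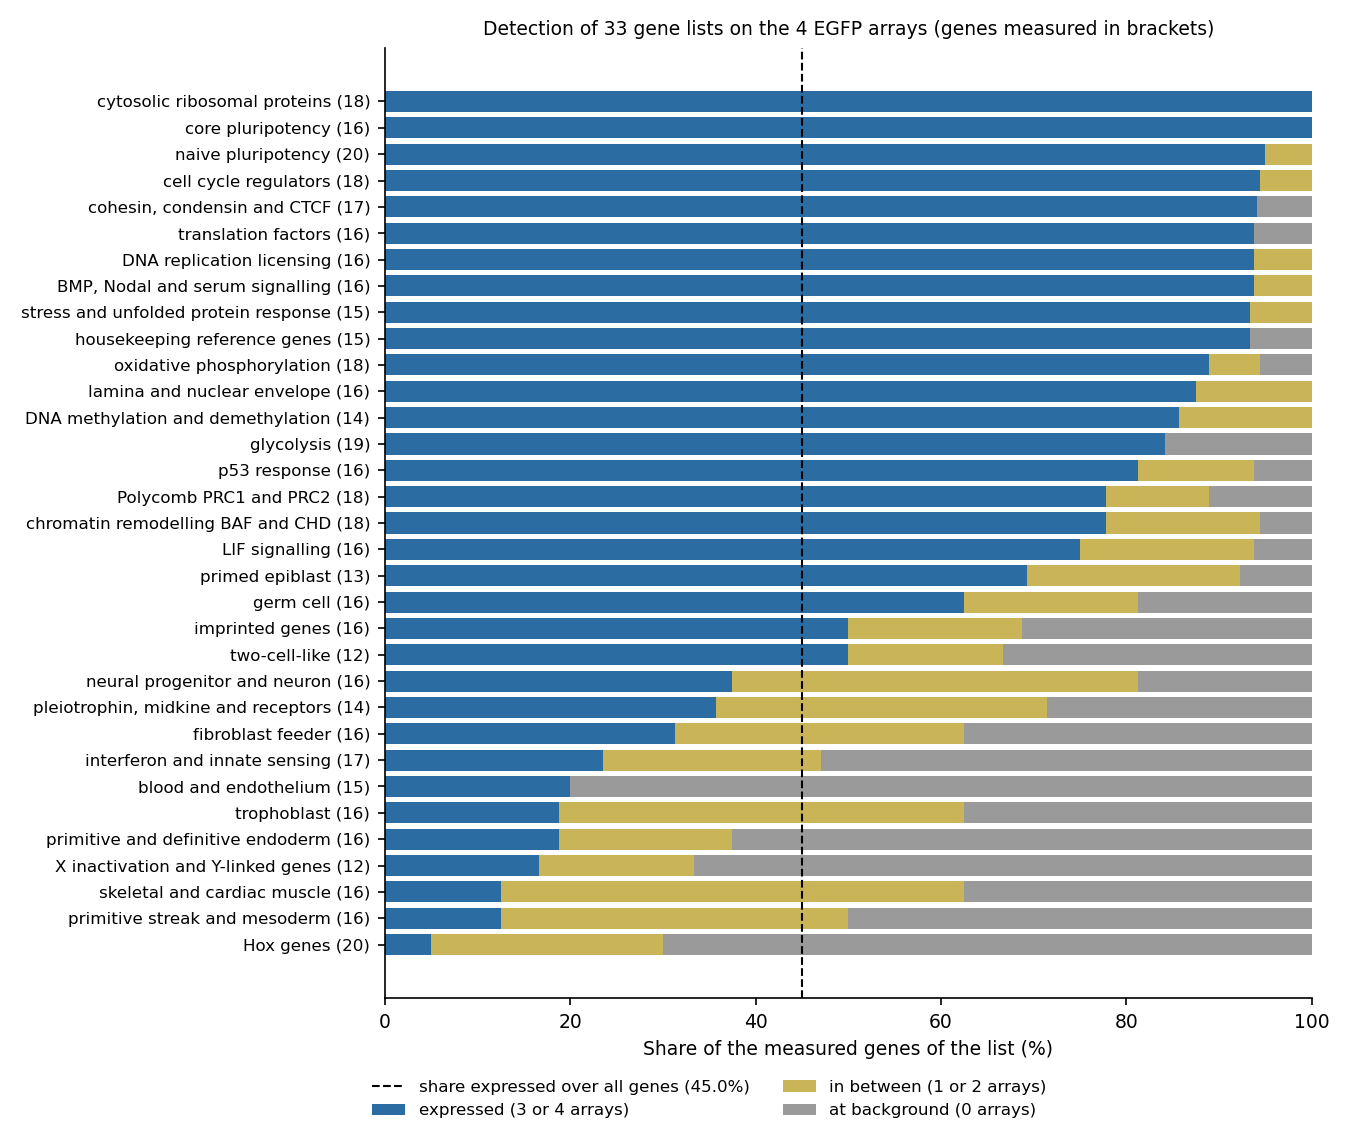
Share (horizontal axis, %) of the measured genes of each of 33 lists that were expressed, in between or at background on the EGFP arrays, with the share expressed over all genes as a dashed line at 45.0%. Ribosomal and core pluripotency genes are at the top with all members expressed, and Hox genes at the bottom with 1 of 20.

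All 18 cytosolic ribosomal protein genes of the list were expressed on 4 arrays, with a median level of 6.67. Over symbols of Rpl or Rps with a number, and Rplp and Rpsa, the count was 96 of 101. That pattern also admits S6 kinase genes. Mitochondrial ribosomal genes gave 77 of 78, proteasome genes (Psm) 48 of 50, RNA polymerase subunits (Polr) 26 of 26 and splicing factors (Snrp and Sf3) 21 of 21. Symbols beginning with Nduf, which admit complex I subunits and assembly factors, gave 45 of 46. Eif symbols, which admit Eif2 kinases beside translation initiation factors, gave 51 of 56, and chaperonin subunits (Cct) 7 of 9. These families were added after the data had been seen. In the other direction, potassium channels (Kcn) gave 10 of 96, cytochrome P450 genes (Cyp) 9 of 98, keratins (Krt) 6 of 49 and collagens (Col) 6 of 43. Solute carriers (Slc), at 151 of 373 (40.5%), were near the 45.0% of all genes. Zinc finger genes (Zfp), at 234 of 371 (63.1%), were above it.

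The cell cycle list was expressed in 17 of 18 cases and the replication list in 15 of 16. Ccne1, the cyclin E that is known to be high throughout the ES cell cycle, read 6.21, 4.53 and 5.34 on replicates 1 to 3, and Ccna2, cyclin A, read 6.14, 3.32 and 5.38. Cdk1, the kinase of mitosis, read 2.91 and 3.47 on replicates 1 and 4 but -2.91 on replicate 3, where it was at background. After a correction for patches it kept 2 levels, with a mean of 3.09. Its other probes were called on 2 arrays and 1 array, at means of -0.84 and -3.19. The origin licensing genes Mcm4 and Mcm5 had means of 5.68 ± 0.51 and 4.46 ± 0.81 (SD, n = 3 each). Cdkn1a, the p21 inhibitor of cyclin-dependent kinases, was called on 4 arrays with a mean of 0.24 ± 0.55 (n = 4) by 1 of its 2 probes. Aurkb and Tyms were the exceptions, called on 2 arrays each.

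Metabolic genes split by isoform. Of 19 glycolysis genes 16 were expressed on 4 arrays, with Gpi1 at a mean of 5.87 ± 0.06 (SD, n = 2) and Pfkl at 3.12 ± 0.69 (n = 3). Marked spots of Gpi1 read 5.17 and 6.40 on replicates 1 and 2. Pklr, the pyruvate kinase gene of liver and red blood cells, was at background on all 4 arrays, while its broadly used paralogue Pkm was expressed. Among 18 genes of oxidative phosphorylation 16 were expressed. The tissue-restricted isoform Cox4i2 was at background, beside Cox4i1, which was called on 4 arrays. Cox6a2, also tissue-restricted, was in between, called on replicates 3 and 4 in marked spots at 1.32 and 1.86. The translation list had a single exception of the same kind, Eef1a2, the elongation factor of neurons and muscle, at background beside Eef1a1, which was saturated on 3 arrays.

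Among 15 reference genes measured, 14 were expressed on 4 arrays and Hprt was at background on all of them. Actb, beta-actin, read 6.42, 7.71, 3.51 and 6.45, lowest on replicate 3 by a wide margin. After a correction for patches it kept 2 levels, with a mean of 7.025. Gapdh, a glycolytic enzyme, was saturated on replicates 1, 3 and 4 and read 8.40 on replicate 2. Tbp, the TATA-binding protein, read 3.83, 1.32, 3.04 and 3.01. Hprt has 1 probe on the array, and it read -2.66, -1.70, -3.17 and -3.30 with no call on any array. As background, the TG2a subline of E14 was selected for lack of Hprt, and the labels do not say which subline was used.

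The repressive and architectural machinery of chromatin was mostly expressed. Of 18 Polycomb genes 14 were expressed, a share of 77.8% beside the 45.0% of all genes. They included the methyltransferase Ezh2 at a mean of 3.63 ± 0.17 (SD, n = 2) and Suz12 at 3.56 ± 1.03 (n = 4). Marked spots of Ezh2 read 4.55 and 2.43 on replicates 1 and 3, a wider range than its SD. Eed stood at 6.42 ± 0.15 (n = 3) and Jarid2 at 5.13 ± 0.56 (n = 4). Eed was saturated on replicates 1 and 3, which limits its level and its SD. Rnf2, the ubiquitin ligase of PRC1, was expressed at 4.23, while its paralogue Ring1 and the chromodomain gene Cbx8 were at background and Cbx7 was called on 1 array. Of 18 remodelling genes 14 were expressed, also 77.8%. The ATPase Smarca4 (Brg1) read 0.22, 4.20 and 3.19 on replicates 1, 2 and 4. After a correction for patches Smarca4 kept 2 levels, with a mean of 3.37. Its paralogue Smarca2 (Brm) was at background. Actl6a was called on 4 arrays and the neuronal Actl6b on 1.

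DNA methylation genes were expressed in 12 of 14 cases. Dnmt3l, the cofactor of the de novo enzymes, had a mean of 5.89 ± 0.33 (SD, n = 2) and the maintenance enzyme Dnmt1 2.17 ± 0.10 (n = 2). Marked spots of Dnmt1 read 3.18 and 2.05 on replicates 1 and 3. Dnmt3a, the second de novo enzyme, was called on 3 arrays and read -0.70 and -0.19 on replicates 2 and 4 but -4.29 on replicate 3. After a correction for patches it kept 2 levels, with a mean of -0.57. Tet1 and Tet2, which oxidise methylcytosine, were called on 4 arrays and Tet3 on 1. Of 17 cohesin, condensin and CTCF genes 16 were expressed, with Ctcfl, the germline relative of CTCF, at background. Of 16 lamina and envelope genes 14 were expressed. Lmnb1, lamin B1, read 3.94, 4.38, 3.88 and 5.77, and Lmna, lamin A, was called on 3 arrays at 1.63, 0.71 and 1.88 and read -1.05 on replicate 1, where it was not.

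Hox genes, the body-axis regulators held silent by Polycomb in ES cells, were expressed in 1 of 20 cases (5.0%). At background were 14 (70.0%), beside 45.0% of all genes expressed and 35.1% at background. The 1 expressed gene was Hoxa9, at -1.05, 0.04 and -2.57 on replicates 1, 2 and 4 and at background on replicate 3. Its second probe was called on 0 arrays. When all 4 arrays were asked for, the count was 0.

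Of 16 imprinted genes 8 were expressed. Snrpn and Mest, both transcribed from the paternal copy, had means of 3.95 ± 0.14 and 3.63 ± 0.40 (SD, n = 2 each), and Cdkn1c, transcribed from the maternal copy, 3.25 ± 0.82 (n = 2). Marked spots of Snrpn read 2.67 and 2.93 on replicates 1 and 4. Igf2, a fetal growth factor, was at background on all 4 arrays, and Dlk1 was called on 4 arrays at 1.29, -0.42, -1.07 and -0.22.

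Xist, the RNA that coats the inactive X chromosome, was at background on all 4 arrays by both of its probes, as was Jpx. Among Y-linked genes, Eif2s3y, a translation factor subunit, read 2.73 and 2.59 on replicates 2 and 4, and Ddx3y, an RNA helicase, read 1.25, 0.56 and 2.05 on replicates 2 to 4. Both were called on 4 arrays, whereas Kdm5d, Sry, Zfy1, Zfy2 and Usp9y were at background and Uty was called on 1 array. E14 is known as a male line.

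Responses that a lipid transfection could set off were described as they stood, since untransfected cells were not analysed here. Of 17 interferon and innate sensing genes 4 were expressed (23.5%) and 9 were at background (52.9%), beside 45.0 and 35.1% of all genes. Among those at background were Ifnb1 and the interferon-induced Isg15, Ifit1, Ifit3, Irf7 and Cxcl10. Ddx58 (RIG-I), a sensor of viral RNA, read 0.05, 1.51, 0.48 and 2.55 and was the highest member. Its second probe was called on 2 arrays, at a mean of -1.97. Oas1a, an interferon-induced antiviral synthetase, was called on 4 arrays at 1.22, 1.15, 0.05 and 0.28. Its second probe was called on 0 arrays, at a mean of -2.45. Stat2, which transmits the interferon signal, was called on 3 arrays with a mean of 0.29. Of 16 p53 response genes 13 were expressed (81.25%). Trp53 itself read 3.32, 4.77, 0.17 and 2.35, and Bax, a death effector, had a mean of 5.37 ± 0.43 (SD, n = 3). Of 15 stress and unfolded protein response genes 14 were expressed (93.3%). The chaperone Hspa5 stood at 5.00 ± 0.28 (n = 3) and the translation-controlled factor Atf4 at 6.09 ± 0.63 (n = 3). Ddit3 (CHOP) was called on replicates 3 and 4 only, at 1.87 and 0.11.

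Ptn, the gene that the other constructs of the series were aimed at, sat close to the limit of detection in the baseline. Its level was -0.68, -1.25, -1.30 and -1.61 on replicates 1 to 4, with no call on replicate 2, and its second probe was called on 2 arrays at a mean of -1.91. Mdk, midkine, the only other member of that growth factor family, read 5.21 and 4.30 on replicates 1 and 3 and 5.62 and 4.16 in marked spots on replicates 2 and 4. The receptors Alk, Ltk and Ptprz1 and the proteoglycan Sdc3 were at background on all 4 arrays, and Sdc4, Itgav and nucleolin (Ncl), other proteins known to bind the factors, were expressed. Over the whole list of 14 genes, 5 were expressed, a share of 35.7% beside the 45.0% of all genes.

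Large intergenic noncoding RNA regions were probed by 16181 probes without a gene name, of which 1425 (8.81%) were expressed, beside 42.8% of the 27656 named probes and 23.0% of the 11844 other probes. The expressed ones were also dimmer, with a median level of -0.05 against 1.47 for expressed named probes. Of 3540 regions, 789 (22.3%) had at least 1 expressed probe. Probes for both strands existed in 1067 regions, and there 57 were expressed on both strands, 386 on 1 strand and 624 on neither. Among the 5 brightest of these probes, 3 lay on the forward strand of the same region, chr6:116123643-116124550 in the array's mm9 annotation, with levels between 6.38 and 7.74. The other 2 lay on the reverse strand of chr11:22681800-22707775 and the forward strand of chr17:48068261-48087905, at means of 6.85 and 6.68.

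The 20 brightest signals included 8 ribosomal protein genes (Rps23, Rpl34, Rpl12, Rpl10a, Rpl10, Rpl9, Rpl26 and Rpl7) and the elongation factor Eef1g. Among the others were the glycolytic enzyme Eno1, the tubulin Tuba1b, the ferritin chain Ftl1, the histone H2ac15, the histocompatibility gene H2-Q4, Ptma, Tpt1, Coa8 and the gene models Gm8580 and Gm12070. Rpl34 and Tuba1b entered on the value of replicate 4 alone, since their spots on the other arrays were marked. Rps23 had the highest mean, at 7.76 ± 1.82 (SD, n = 3), read from 9.80, 6.32 and 7.15 on replicates 2 to 4. Of the 20 genes, 18 were saturated on at least 1 array, and over all genes 239 were saturated on at least 1 array and 13 on all 4, so the order within the group has no meaning.

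The spread between arrays was wide for most genes. Among 3804 expressed genes with a level on all 4 arrays, the median SD was 0.873 log2 units and 38.7% had an SD over 1. In bins of level from -2 upward the median SD ran from 0.602 to 0.918. After patch correction, which builds agreement in, it ran from 0.437 to 0.56. The smallest SDs belonged to Des, Rps18, Lyplal1, Rpl28 and Fam133b, from 0.09 to 0.12, of which Rps18 was saturated on 3 arrays and Rpl28 on 2. The largest belonged to genes in which a single array departed. 1700007K13Rik read 5.82 on replicate 2 against -2.06 to -0.83 elsewhere, and Tagap read 5.25 on that array against -2.61 to 0.14. Rsph1 and Six5 read 6.56 and 6.55 on replicate 4 and no more than -0.11 elsewhere. Wdr48 read -4.21 on replicate 3 and 1.37 to 3.11 elsewhere, and after a correction for patches it kept 3 levels, with a mean of 2.17.

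Across expressed genes, Pearson's r between pairs of arrays was lowest for replicates 1 and 2, at 0.608, and highest for replicates 2 and 4, followed by replicates 1 and 4 at 0.817, with a median of 0.767. Genes are not independent replicates, so these values carry no p. After patch correction, which subtracts the local shift of each array from a map over all 16 arrays and so builds agreement in, r ran from 0.857 to 0.970. The 3 lowest corrected values, from 0.857 to 0.895, were those that involve replicate 2. The pairs that shared a slide, 1 with 2 and 3 with 4, stood at 0.608 and 0.814 before the correction, the former the lowest of the 6 pairs. Which arrays are technical repeats was not stated, and their part in this order was not tested.

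**Figure D4:**
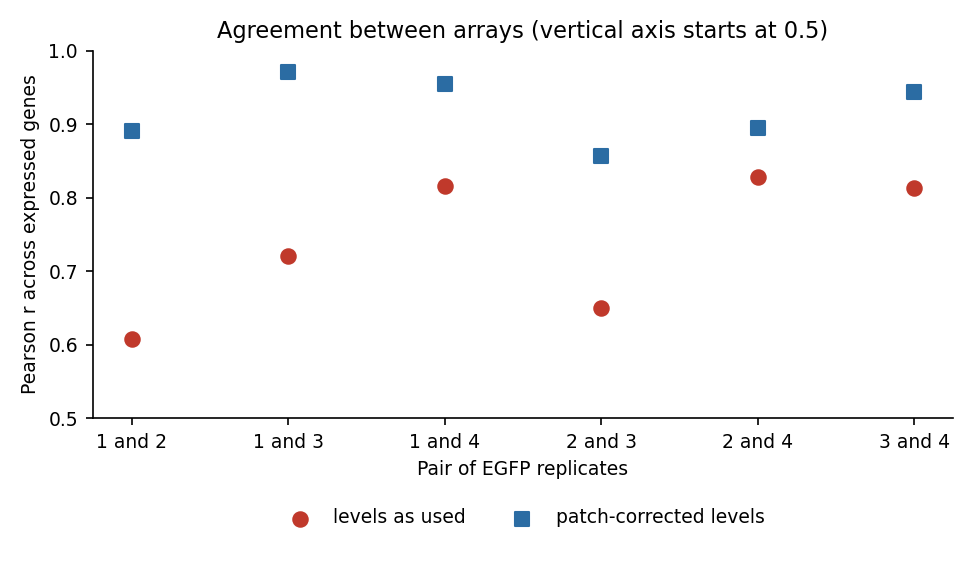
Pearson's r across expressed genes (vertical axis, starting at 0.5) for each of the 6 pairs of EGFP arrays (horizontal axis), with circles for levels as used and squares after patch correction. Circles start at 0.608, with a median of 0.767, and squares span 0.857 to 0.970.

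Along the genome the share of expressed genes ran from 38.1% on chromosome 6 to 51.1% on chromosome 12 among autosomes. The X chromosome stood at 38.5% of 832 genes and the Y chromosome at 3 of 21. Leaving out the receptor, keratin-associated and defensin families moved chromosome 6 to 42.3%, chromosome 7 from 40.0 to 48.5% and chromosome 2 from 43.0 to 51.1%, but the X chromosome only to 38.8%.

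The 6 promoters printed belong to a wider contrast. A promoter was at hand for 82.0% of coding genes outside chromosome 18, with 7544 of 9072 expressed genes and 5217 of 6448 background genes covered. The limit to coding genes outside chromosome 18 was chosen after the coverage had been seen. CpG observed over expected, which is 1 when CpG is as frequent as its bases predict, had a median of 0.787 in expressed genes (quartiles 0.609 and 0.927). It was 0.515 in genes in between and 0.259 in genes at background (quartiles 0.119 and 0.535). Without the receptor, keratin-associated and defensin families, the background median was 0.323 (quartiles 0.156 and 0.615). The share of genes expressed rose across bins of this ratio from 10.7% under 0.2 through 21.9, 46.1, 63.7 and 72.3% to 79.8% at 1 and over. GC content followed, at medians of 61.0 and 50.3%.

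**Figure D5:**
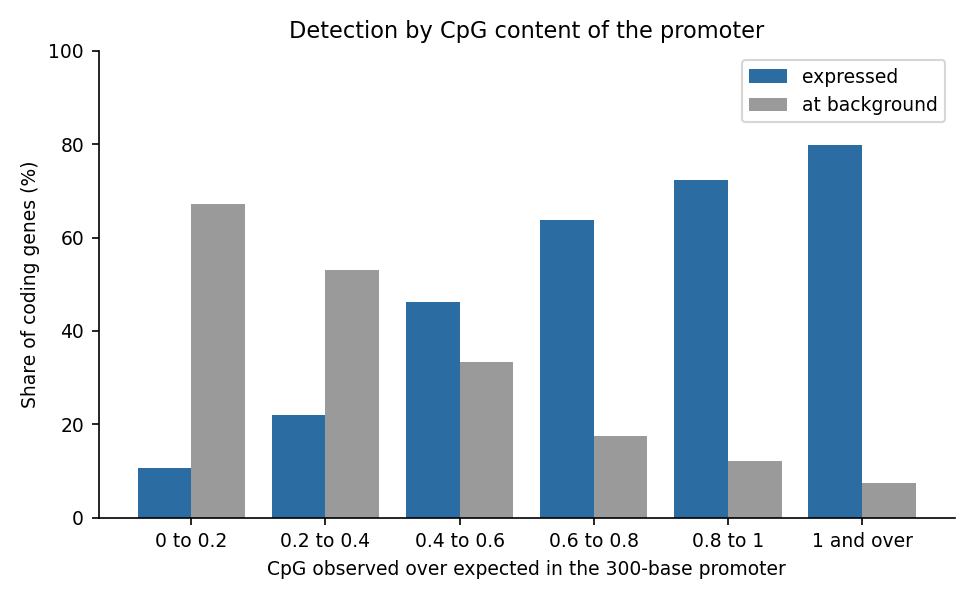
Share of coding genes that were expressed or at background (vertical axis, %) by the CpG observed over expected ratio of their promoter (horizontal axis, 6 bins of 1386 to 3461 genes). The expressed share climbs from 10.7 to 79.8% while the background share falls from 67.3 to 7.36%.

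Short motifs were searched as letters on both strands of the same promoters. TATAAA, the TATA box, was in 6.73% of promoters of expressed genes, 20.8% of those at background and 12.7% of all 15818 coding genes covered. Without the receptor, keratin-associated and defensin families it was in 16.2% of those at background. GGGCGG, a GC box, was in 66.4, 27.0 and 49.5% of the same 3 sets, and overlaps CpG by its own letters. Without those families it was in 32.9% of promoters at background. CCAAT, the CCAAT box, was in 40.1, 37.8 and 38.8%, nearly the same in each set. A match is not evidence that a factor binds. Of the 6 promoters shown, that of Rplp0 holds all 3 motifs, that of Nanog holds none, and that of Hprt holds GGGCGG alone. The genes picked included exceptions at both ends, with Nanog, of ratio 0.192, read at 6.03 and Hprt, of ratio 0.844, at background. The limit of the unnamed E14 subline applies to Hprt. Over all covered coding genes, 10.7% were expressed under a ratio of 0.2, and 12.2% were at background from 0.8 to 1.0.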

How the data were processed

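RNA of 4 EGFP-transfected E14 samples had been hybridised to single-colour Agilent arrays with Cy3 label, among 16 arrays of the series. The authors deposited 1 Feature Extraction table (version 11.5.1.1, per the file headers) for each array. Its processed signal is an intensity after background subtraction and spatial detrending, per the file headers. Arrays had not been normalized to each other. The authors also deposited a series table of log2 values, whose columns share the same quantiles (75th percentile 9.49); it was used only as an alternative. The array annotation is on mm9, per the file headers.

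Control spots (3671 per array) were removed. The remaining 59305 spots belonged to 55681 probes, of which 27656 matched 1 symbol in a RefSeq gene table (GRCm38.p6) through their accession. Detection read the flag for a signal well above background on every spot, with repeated spots of a probe decided by majority, ties counted as detected. Levels are log2 of the processed signal minus log2 of the array's 75th percentile, with spots marked as non-uniform or outlier left out and the probe with the highest mean standing for the gene. No group was compared and no p-value computed. Alternatives covered the number of arrays, the detection flag, marked spots, patches, normalization, normexp background correction in limma 3.58.1 and each array left out. Local shifts were medians in windows of 21 by 21 spots over 17906 spots, and a patch was a place whose shift left the median of its array by over 1 log2 unit. The detection and level steps were tested on simulated data.

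The 33 gene lists held 527 genes, of which 517 matched a symbol. Members, lists and rules were chosen with earlier results of these data known. Named genes were the first 4 of each list, up to 3 members against the trend of the list, the 20 brightest, the 5 with the smallest and the 5 with the largest SD, and up to 5 expressed genes of the receptor, keratin-associated and defensin families; other genes are named by value or call after their values were seen. Sequences come from RefSeq (GRCm38.p6), where 16613 of 20972 genes had a promoter; the first listed start was used. The number of arrays limits the precision, and the depth of an array is not a count.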

Additional observations from a re-analysis of the deposited data

Results flagged for a closer look

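Of 88 levels and list medians with a value on all 4 EGFP arrays, 10 had an array that stood apart from the other 3 by Dixon's criterion. For independent, normally distributed values the criterion flags about 1 in 20. The values here share the same 4 arrays, and some genes were picked for a high mean level, so the 10 cannot be set against that rate.

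The level of Gapdh on replicate 2 was 8.40 against 6.44 to 6.57 on the other arrays, that of Rpl12 was 8.88 against 6.44 to 6.84, that of Ptma 9.08 against 6.37 to 6.82, that of H2ac15 8.75 against 6.44 to 6.57 and that of Coa8 8.66 against 6.44 to 6.61. Gapdh, Rpl12 and Coa8 were saturated on the other 3 arrays, Ptma on replicates 3 and 4 and H2ac15 on all 4, so these gaps set a value against saturated spots. The processed values on replicate 2 also lay above the saturation value of its raw signal, 8.29.

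Elavl3, an RNA-binding protein of neurons, read 1.11 on replicate 2 against -0.90 to -0.82 elsewhere, and Sox1 read -1.06 on that array against 0.28 to 0.53. Myh3 read 0.57 on replicate 1 against -1.24 to -0.96 elsewhere. The median of the core pluripotency list was 5.15 on replicate 2 against 5.61 to 5.65, and that of the two-cell-like list was -2.75 on replicate 4 against -1.68 to -1.60.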

How the results depend on the processing

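The number of expressed genes stayed within 1.5 times of 9445 under every alternative but 1. It was 7141 with all 4 arrays required, 11097 with 2, 12613 with the flag for a positive and significant signal, 7173 without marked spots, 8571 without spots in patches, 9402 with 1 probe per gene, and 9719 to 10838 with an array left out. With the 99th percentile of negative controls as the threshold it was 5598 genes, with 9053 probes expressed and 11301 genes at background; 5578 of those genes were among the 9445. The positive and significant flag moved the number of probes from 15987 to 24324 and of genes at background from 7369 to 3897. Leaving out 1 array gave 16784 to 19195 probes and 7612 to 8471 genes at background. Requiring all 3 arrays other than replicate 2, an alternative chosen after seeing the data, gave 8748 genes, 14549 probes and 7612 genes at background. The median correlation between arrays, 0.767, became 0.920 with patch correction and lay between 0.649 and 0.817 with 1 array left out, lowest without replicate 4. Of the 33 list counts, 14 moved by more than 1.5 times at the 99th percentile, 11 without marked spots and 10 with the positive and significant flag. Of 219 levels of named genes, 83 moved by more than their SD under normexp background correction and at most 18 under any other alternative. No paired analysis was possible because the results come from no test.

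Saturation limits bright genes and the background limits dim ones: on replicates 1 and 3 the negative controls had a median of -3.37 and -4.29, values that many genes at background share. As the repeats are not identified, the spread cannot be split into biological and technical parts.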

Other observations

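The labels state that spike-in RNA of the Agilent one-colour kit was added. The 10 probes for such transcripts (named E1A in the files, 350 spots on each array) were well above background on 5.43, 2.86, 8.86 and 9.14% of their spots on replicates 1 to 4. The 308 negative control spots of each array gave 6.17, 2.92, 5.84 and 8.44%. The 96 probes for ERCC transcripts gave 3.90 to 8.62%.

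Of 5554 genes with several probes, 3363 were expressed. In 1827 of these all probes were expressed, and in 709 at least 1 probe was expressed while another was at background on all 4 arrays.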
